A study of Homo sapiens with 5 samples.

Results

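Promoter ATF3 sites that were occupied in HCT116 cells both before and after DNA damage are described here. They are the peaks of the library from ATF3-WT cells that received DMSO (ATF3-Ctrl) whose centre lay within 2 kb of the transcription start site (TSS) of a protein-coding gene, that shared at least 1 bp with a peak of the library from ATF3-WT cells treated with camptothecin (ATF3-CPT), and that shared none with a peak of the ATF3-KO library. Of 33966 ATF3-Ctrl peaks, 33571 lay on chromosomes 1 to 22 and X and 7239 of these were within 2 kb of a TSS. An ATF3-CPT peak overlapped 5862 of them, and 985 were removed because they also overlapped an ATF3-KO peak. The remaining 4877 sites were 14.4% of the ATF3-Ctrl list and were nearest to the TSS of 4383 of 20098 protein-coding genes (21.8%). A second group, of 1340 promoter peaks, overlapped no ATF3-CPT and no ATF3-KO peak and served for comparison of position.

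The study measured binding of ATF3 and p53 by ChIP-seq in HCT116, a human colorectal cancer cell line with wild-type p53, to learn where ATF3 sits in the genome and how a damaging drug alters that pattern. Camptothecin (CPT), a topoisomerase I poison that causes DNA breaks, was given at 1.5 μM for 4 h, and the other cells received its solvent DMSO. ATF3-KO cells, which are clones made by virus-mediated recombination in exon 3 of ATF3, received DMSO, so the removal of ATF3-KO peaks compares libraries without CPT only. Each condition was 1 library, all chromatin was fixed in 2 steps (DSG at 1 mM over 45 min, then formaldehyde at 1% over 10 min), and p53 was precipitated from CPT-treated cells (p53-CPT) and from DMSO-treated p53-knockout cells (p53-KO).

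ATF3 is a stress-inducible transcription factor of the basic leucine zipper (bZIP) family, whose members bind DNA as dimers. With ATF and CREB proteins it recognizes the ATF/CRE element TGACGTCA, and with JUN proteins the shorter AP-1 element TGACTCA or TGAGTCA. Heterodimers of an ATF and a C/EBP protein recognize a composite, here searched as TGATGNAA, which is found near genes of amino acid supply and of the integrated stress response under the control of ATF4. TGACG is the left arm of the ATF/CRE element. The plots call these sequences the ATF/CRE core, the AP-1 core, the C/EBP-ATF word and the TGACG half-site.

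The depth was 12947516 tags in ATF3-Ctrl, 15457013 in ATF3-CPT and 12820520 in ATF3-KO. Values are the deposited normalized tag counts (NTC), which are tags in a peak per 10000000 tags of the library, a single tag being worth 0.772 before CPT and 0.647 after it. The share of tags in peaks was 5.60% in ATF3-Ctrl and 12.76% in ATF3-CPT. Because the NTC is scaled to all tags, each ratio includes this difference in enrichment. With 1 library each, a difference in binding and a difference in precipitation cannot be told apart. With 1 library per condition there was no replicate error and no test was made. Intervals are 95% intervals (exact Poisson for an NTC, exact conditional binomial for a ratio, Wilson for a share) that cover counting error only, and tags without molecular identifiers are not independent molecules. Because the sites were chosen by their presence in both libraries, the values before and after CPT are a description. The ATF3-KO list began at an NTC of 6.2, and its threshold of 11 tags came to 8.6 tags per 10000000 against 7.0 in ATF3-Ctrl. By that measure 1701 of the 4877 sites (34.9%) had a findPeaks score in ATF3-Ctrl under the level at which a peak could be called in ATF3-KO, and for these the knockout could not have removed a site of equal strength.

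The sequences below are from the sites that stood at the extremes. Each run is from the + strand of GRCh37 (hg19), placed around the element or word, which is in capitals. The first 6 are among the 10 sites with the highest NTC before CPT, and show the composite, often as TTGCATCA, which is TGATGCAA read on the other strand. STK40 has it beside an AP-1 element, and BUD31 has in its place a TGACG that is followed by CAA. SHMT2 and BTF3L4 are among the 10 sites with the largest decrease, and HOXC10 and LASP1 among the 10 with the largest increase. The runs at CHAC1, SLC7A11, SHMT2, BTF3L4 and ISG15 were added after the values were seen. ISG15 had the highest NTC before CPT among sites with the ATF/CRE element.
STK40, chr1:36852228-36852287, AP-1 element: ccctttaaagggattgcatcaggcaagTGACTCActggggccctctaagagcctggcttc
HERPUD1, chr16:56965852-56965911, C/EBP-ATF composite: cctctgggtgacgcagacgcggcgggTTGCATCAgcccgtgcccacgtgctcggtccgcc
S100PBP, chr1:33282938-33282967, C/EBP-ATF composite: gtccagccaggTTGCATCAgctgggctcgg
BUD31, chr7:99006498-99006527, TGACG: aggacacctaagaTGACGcaatctccgcgc
SLC7A11, chr4:139163546-139163605, C/EBP-ATF composite: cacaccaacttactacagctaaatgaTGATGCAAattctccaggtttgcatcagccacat
CHAC1, chr15:41245449-41245478, C/EBP-ATF composite: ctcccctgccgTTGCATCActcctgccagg
SHMT2, chr12:57623942-57623971, C/EBP-ATF composite: agccctgcagaTGATGCAAccgagcttcac
BTF3L4, chr1:52521405-52521464, C/EBP-ATF composite: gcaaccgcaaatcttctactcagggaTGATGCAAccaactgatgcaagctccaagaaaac
HOXC10, chr12:54378807-54378836, ATF/CRE element: cttgaccccgcTGACGTCAcggccgtctga
LASP1, chr17:37027888-37027947, AP-1 element: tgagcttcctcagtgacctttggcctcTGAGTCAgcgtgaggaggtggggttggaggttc
ISG15, chr1:936272-936331, ATF/CRE element: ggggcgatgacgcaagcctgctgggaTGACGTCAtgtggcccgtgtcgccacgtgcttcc

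Most of these promoter sites were weak before CPT and had a higher tag count after it. The median NTC was 10.0 in ATF3-Ctrl (quartiles 7.7 and 14.7, range 5.4 to 356.1) and 15.5 in ATF3-CPT (quartiles 9.7 and 26.5, range 4.5 to 449.6). The median log2 ratio of ATF3-CPT to ATF3-Ctrl was 0.47 (quartiles 0.00 and 1.05), which is a ratio of 1.39. The increase was smaller than that of ATF3 sites in general. All 27104 shared ATF3-Ctrl peaks, wherever they lay, had a median log2 ratio of 0.85, and the 20402 of them that lay outside promoters and overlapped no ATF3-KO peak had 1.01. Relative to all shared peaks the promoter sites were therefore at -0.37.

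The NTC was at least 2-fold higher after CPT at 1323 promoter sites (27.1%), beside 43.7% of all shared peaks and 50.6% of the sites outside promoters. It was at least 2-fold lower at 64 sites (1.31%), beside 2.45% of all shared peaks. Any lower value was seen at 1219 of the 4877 sites, beside 19.6% of all shared peaks. When every ratio was divided by the median over all shared peaks, the split turned around: 189 sites (3.88%, beside 8.44%) were then at least 2-fold higher and 869 (17.8%, beside 15.1%) at least 2-fold lower. The counting interval of the ratio lay above 1 at 1431 sites (29.3%, beside 47.9%) and below 1 at 122 sites (2.50%, beside 3.38%), so at most sites the ratio could not be told from 1 at this depth.

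**Figure D1:**
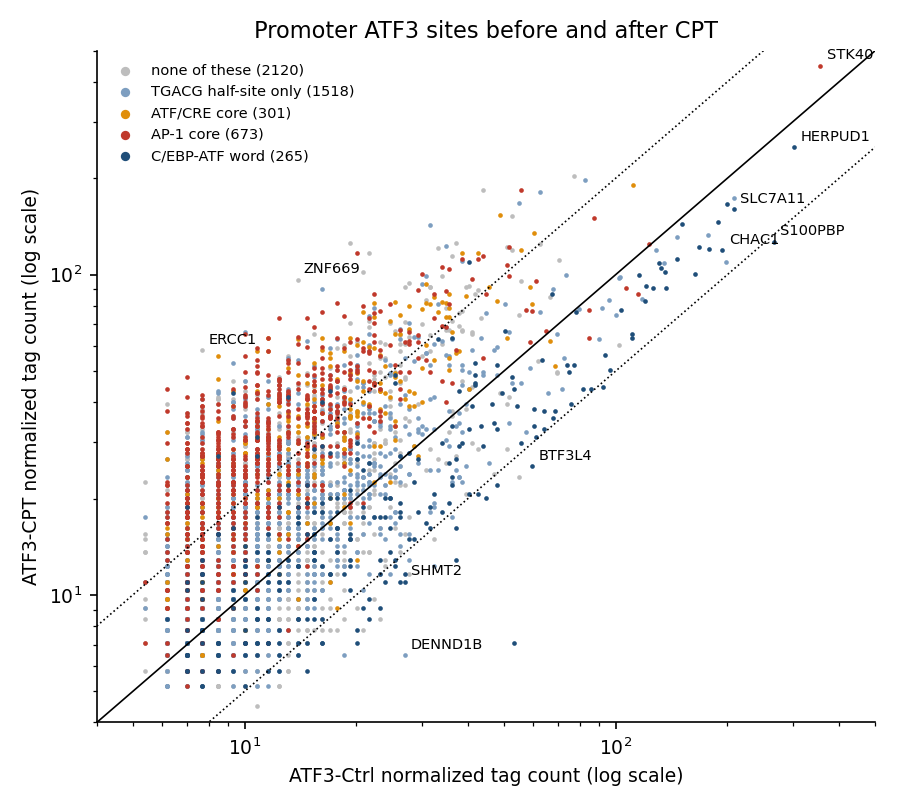
Normalized tag count of each of the 4877 promoter sites in ATF3-Ctrl (x axis, log scale) and ATF3-CPT (y axis, log scale), coloured by the element or word within 200 bp. The solid line marks equal values and the dotted lines a 2-fold difference; sites with the AP-1 core lie mostly above the solid line, while those with the C/EBP-ATF word run below it up to the strongest sites on the right.

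The strongest promoter sites before CPT stood apart from the rest. Of the 10 with the highest NTC in ATF3-Ctrl, 9 had a lower NTC after CPT, and of the 100 highest, 74 did. Choosing sites by a high ATF3-Ctrl value itself favours a lower ratio. Strong sites outside promoters were often lower too, at 56.7% of those with an NTC over 100 and 34.4% of those between 50 and 100. STK40, a serine/threonine kinase-like gene, was the exception among the 10, with an NTC of 356.1 (interval 324.3 to 390.1) before and 449.6 (416.8 to 484.3) after CPT at chr1:36852172-36852298, at -710 bp from its TSS. That site holds both the AP-1 element and, a few bases away, the C/EBP-ATF composite.

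HERPUD1, which encodes a component of endoplasmic-reticulum-associated degradation, had an NTC of 302.8 before and 249.7 after CPT at chr16:56965822-56965948, 169 bp upstream of the TSS (ratio 0.825, interval 0.71 to 0.95). S100PBP, at chr1:33282893-33283019 in a UTR, had 267.2 and 126.8 (ratio 0.475, interval 0.40 to 0.57), the lowest ratio among the 10. BUD31, encoding a splicing factor, had 208.5 and 174.0 (interval of the ratio 0.70 to 0.99). These 3 intervals lay below 1, that of S100PBP by the widest margin.

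SLC7A11, the cystine transporter subunit needed for glutathione synthesis, had an NTC of 207.8 before and 160.4 after CPT, 69 bp upstream of the TSS (interval of the ratio 0.65 to 0.92). CHAC1, a glutathione-degrading enzyme induced by ATF4, had 193.9 and 119.0 in a UTR (interval 0.50 to 0.75). PPP1R15B, the constitutive subunit that directs dephosphorylation of eIF2α, had 259 tags before and 256 after, a ratio of 0.828 when scaled to depth (interval 0.69 to 0.99). All 3 carry the composite and belong to the integrated stress response.

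The homeobox gene HOXB9 had an NTC of 189.2 before and 146.2 after CPT (interval of the ratio 0.64 to 0.93). NTMT1, a protein N-terminal methyltransferase, had 178.4 and 120.3 (interval 0.55 to 0.82), and its site also overlapped a p53-KO peak. In these peaks many tags shared a position: the median was 1.87 tags per position in ATF3-Ctrl and 1.67 in ATF3-CPT over the 10 sites. By the findPeaks score, which counts 1 tag per position, all 10 were lower per 10000000 tags after CPT, STK40 included (median log2 ratio -0.30). Such a score has a ceiling at strong peaks, and scaling to the larger depth of ATF3-CPT then lowers it. Unscaled, it rose at STK40 (194 and 220), HERPUD1 (168 and 180), SLC7A11 (138 and 143) and PPP1R15B (115 and 118). At the rest of the 10 it fell, as at S100PBP (168 and 136). The scaled score therefore cannot decide the direction at these sites.

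The largest increases began from weak sites, which a ranking by ratio favours. ERCC1, a nucleotide excision repair endonuclease subunit, had an NTC of 7.7 (interval 3.7 to 14.2) before and 58.2 (46.8 to 71.6) after CPT at chr19:45981487-45981613, in an intron 536 bp downstream of the TSS (ratio 7.56, interval 3.92 to 16.26). LASP1, encoding an actin-binding LIM protein, had 8 tags before and 68 after (ratio 7.10), and the zinc finger gene ZNF669 had 13.9 and 96.4. In each of the 3 the ATF3-CPT value lay well above the interval of the ATF3-Ctrl value, though the 3 were picked for their high ratios.

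HOXC10, a homeobox gene whose site was centred 15 bp upstream of its TSS and held an ATF/CRE element, had an NTC of 8.5 before and 55.6 after CPT. SIK3, EXTL3, IGFN1, FCRLA and HSCB were also among the 10 largest increases, with ratios between 6.05 and 6.84. The EXTL3 site was 598 bp from the start of its gene record but at -21665 bp from the nearest TSS of a protein-coding transcript. Of the 10, 4 held the AP-1 element, 1 the ATF/CRE element, 1 only TGACG, and 4 none of the elements searched. The C/EBP-ATF composite was in none of them.

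Among sites with at least 30 tags in either library, the 10 largest decreases were mostly at sites with the composite. For a decrease this limit selects sites that were strong before CPT, and 43 of the 100 highest were of the composite class. Of all 64 sites at least 2-fold lower, 28 were of the composite class, 25 held none of the elements and 11 only TGACG. The site in an intron of ENSG00000289701, at chr9:139267105-139267231, had an NTC of 53.3 (interval 41.5 to 67.4) before and 7.1 (3.6 to 12.7) after CPT, a ratio of 0.133 (interval 0.06 to 0.25). DENND1B had 27.0 and 6.5, and BTF3L4 59.5 and 25.2. The composite was in 6 of these 10 sites and the ATF/CRE or AP-1 element in none.

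SHMT2, the mitochondrial serine hydroxymethyltransferase, had an NTC of 27.0 before and 11.0 after CPT (ratio 0.407, interval 0.21 to 0.75), and PDK1, a pyruvate dehydrogenase kinase, had 26.3 and 11.0 (interval 0.22 to 0.77). The others were CTDSP2, GCH1, APOC1, LGALS3BP and FGF2, with ratios between 0.348 and 0.417. All of the 10 had ratio intervals below 1, but they were picked for their low ratios, so this is no separate support.

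The sites also differed by the sequence they held. In the 200 bp around the centre, 301 sites (6.17%, interval 5.53 to 6.88) held the exact ATF/CRE element and 678 (13.9%, 13.0 to 14.9) the exact AP-1 element on either strand, and 974 (interval 18.9% to 21.1%) held at least 1 of them. The same search in windows 1000 bp to either side found 0.236% and 2.80%, and at TSS with no ATF3-antibody peak within 2 kb 0.687% and 2.55%. Around all protein-coding TSS the shares were 1.87% and 2.63%. Shared sites outside promoters held the ATF/CRE element less often (1.13%) and the AP-1 element more often (49.9%).

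TGACG was in 40.6% of the promoter sites, in 15.3% of the sites outside promoters and in 13.6% of the TSS without a peak. This count includes the ATF/CRE element, which contains it. The composite TGATGNAA was in 299 promoter sites (6.13%), in 17.0% outside promoters and in 1.91% of TSS without a peak. The elements lay close to the centre: the median distance was 15.5 bp for ATF/CRE, 18.0 bp for AP-1 and 11.5 bp for the composite, against 36.5 bp for the GC box GGGCGG and 43.0 bp for CCAAT.

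Other promoter words were closer in share to protein-coding TSS in general. The GC box was in 54.2% of the sites, in 46.6% of all protein-coding TSS and in 34.5% of those without a peak. CCGGAAG, the word of ETS factors, was in 12.9%, 10.1% and 4.93%, and the E-box CACGTG in 9.92%, 5.87% and 4.20%. CCAAT was in 24.6% and 25.8%, with an interval of 24.1% to 25.9% for the TSS without a peak. The median GC content was 65.0% at the promoter sites and 63.5% at all TSS, against 48.0% at the sites outside promoters, and the median observed-to-expected ratio of CpG was 0.84, 0.74 and 0.22.

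Each site was then put into 1 class, by the first it held of ATF/CRE, AP-1, the C/EBP-ATF composite and TGACG. The 673 sites of the AP-1 class had a median NTC of 10.8 before and 28.5 after CPT, a median log2 ratio of 1.28, and 457 of them (67.9%) were at least 2-fold higher. The 301 sites of the ATF/CRE class had 14.7 and 30.4, a median log2 ratio of 1.06, and 156 (51.8%) were at least 2-fold higher. Not 1 site in either class was at least 2-fold lower. Outside promoters the share at least 2-fold higher was alike in the AP-1 class (67.2%) and larger in the ATF/CRE class (63.5%). At least 2-fold lower there were 0.0690% and 0%. The medians of both classes of promoter sites lay above that of all shared peaks, by 0.43 and 0.21.

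The 265 sites of the composite class had a median NTC of 18.5 before and 16.2 after CPT, with a median log2 ratio of -0.36 (quartiles -0.71 and 0.08). Lower values were seen at 187 of them (70.6%), and 28 (10.6%) were at least 2-fold lower, out of 64 such sites in all. Only 9 were at least 2-fold higher. In the composite class outside promoters, 60.6% were lower, 10.0% at least 2-fold lower and 8.01% at least 2-fold higher. The 1518 promoter sites with TGACG alone had a median log2 ratio of 0.45, and the 2120 with none of these 0.32. The composite class was thus the only 1 of the 5 whose median was below 0.

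Outside promoters the classes stood in the same order, except that TGACG alone and none of these changed places, with medians of 1.26 for AP-1, 1.25 for ATF/CRE, 0.70 for TGACG alone, 0.87 for none and -0.21 for the composite. The promoter and the other sites were within 0.1 of each other for AP-1 and farthest apart where none of the elements was found (0.32 and 0.87). The AP-1 class held 673 of the 4877 promoter sites and 10140 of the 20402 others.

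**Figure D2:**
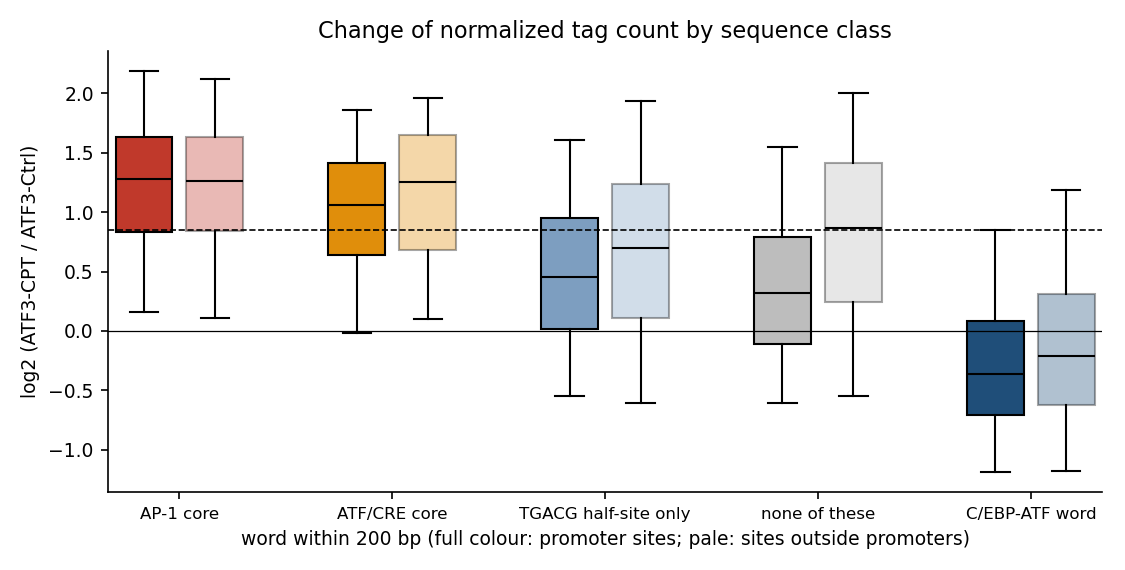
Log2 ratio of the normalized tag count in ATF3-CPT over ATF3-Ctrl by sequence class, for promoter sites (full colour) and shared sites outside promoters (pale). Boxes span the quartiles with the median as a line, whiskers the 5th to 95th percentile of sites, and the dashed line is the median of all shared peaks (0.85); the composite class is the only class with its median below 0 in both settings.

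The letter at the open position of the composite went with the size of the difference, and also with the level before CPT. TGATGCAA, on either strand, was in 155 sites, with a median NTC of 23.2 before CPT, a median log2 ratio of -0.44 and lower values after CPT at 123 (79.4%). TGATGAAA (69 sites) had a median log2 ratio of -0.13, TGATGTAA (65 sites) -0.03 and TGATGGAA (17 sites) 0.57. Their median NTC before CPT was 14.7, 16.2 and 10.8, and the letters were not compared at equal level. TGATGCAA was in 3.18% of the promoter sites and in 0.395% of TSS without a peak.

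TGACGCAA, the same word with C in place of T as at BUD31, was counted after the values were seen. It was in 116 sites, which had a median NTC of 25.5 before CPT, a median log2 ratio of -0.10 and lower values at 71 (61.2%). TGACGTAA (79 sites) had a median NTC of 14.7 before CPT, a median log2 ratio of 0.58 and lower values at 11 (13.9%). These words can share sites with the classes above.

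The level before CPT and the class both went with the ratio, although the ATF3-Ctrl value enters both quantities. Among the 38 promoter sites with an NTC over 100 in ATF3-Ctrl, the median log2 ratio was -0.39 and 35 (92.1%) were lower after CPT. By the score, which has a ceiling at such peaks, 36 were lower. Of these 38, 22 were of the composite class and all 22 were lower (median log2 ratio -0.41). The 10 sites with TGACG alone were all lower too (median -0.29), so at this level lower values were not particular to the composite. In the AP-1 class 2 of 4 sites were lower. The 1 site with none of the elements was lower and the 1 ATF/CRE site was not. The 171 sites outside promoters at that level had a median of -0.07, and 97 of them (56.7%) were lower.

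At lower levels the classes stayed apart. Between an NTC of 10 and 15, the AP-1 class had a median log2 ratio of 1.30 (188 sites), ATF/CRE 1.13 (77), TGACG alone 0.39 (366), none 0.22 (471) and the composite -0.25 (49). Between 25 and 50 the values were 1.10, 0.96, 0.14, 0.80 and -0.47. The AP-1 class came down to 0.54 between 50 and 100, with 12 sites.

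**Figure D3:**
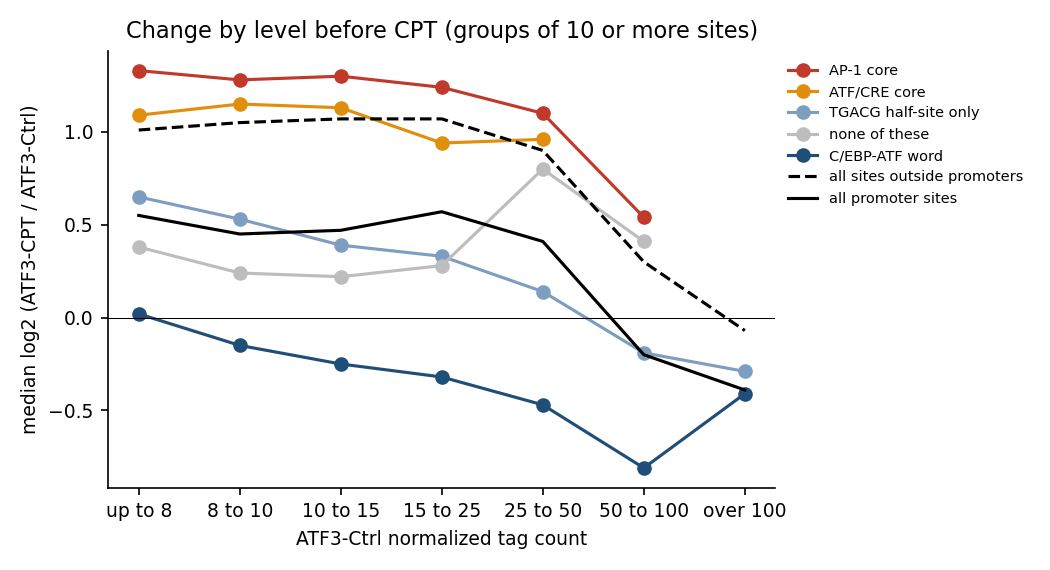
Median log2 ratio of the normalized tag count (y axis) by the count in ATF3-Ctrl (x axis, bins of unequal width) for each sequence class of promoter sites with 10 or more sites in a bin, with all promoter sites as a solid and all shared sites outside promoters as a dashed black line. The AP-1 and ATF/CRE classes stay above all promoter sites in every bin shown, and the composite class stays below.

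Most of the sites lay at the start of their gene. The median distance of the centre from the TSS was -14 bp (quartiles -136 and 276), where a negative distance is upstream in the direction of transcription. Within 200 bp of the TSS lay 2571 sites (52.7%, interval 51.3 to 54.1) and within 500 bp 3402 (69.8%, 68.5 to 71.0), and 54.1% (52.7 to 55.5) were upstream. The 1340 promoter peaks that overlapped no ATF3-CPT peak were less often close to the TSS, with 39.4% (36.8 to 42.0) within 200 bp and 43.7% (41.1 to 46.4) upstream. Within 1 kb the shares were alike, 83.0% (80.9 to 84.9) against 84.6% (83.6 to 85.6) of the 4877. Of the 1340, 297 had an ATF3-CPT peak within 100 bp. Counted from the TSS of any protein-coding transcript, 78.1% of the 4877 sites were within 500 bp.

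The centre of 2113 sites (43.3%) lay outside protein-coding genes, of 1233 (25.3%) in a UTR, of 1179 (24.2%) in an intron and of 189 (3.88%) in a coding exon. Promoters with a second, divergent TSS within 1 kb made up 8.40% of the genes with a site (interval 7.61 to 9.25) and 8.47% of all protein-coding genes (8.10 to 8.87), so that the intervals overlapped.

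Sites near the TSS and sites farther out carried different elements. The AP-1 element was in 38.3% of the 295 sites more than 1 kb upstream, in 6.60% of the 1682 sites in the last 200 bp before the TSS, and in 28.6% of the 455 sites more than 1 kb downstream. The ATF/CRE element had the opposite course, with 1.69%, 8.62% and 4.40%, and TGACG was at 47.4% in the last 200 bp and at 27.5% in the outermost downstream bin. The composite was like AP-1, with 14.6%, 3.27% and 13.8%.

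The median log2 ratio was 0.86 in the outermost upstream bin, 0.50 in the last 200 bp before the TSS, 0.37 in the first 200 bp after it and 0.65 in the outermost downstream bin. Within the AP-1 class the position made less difference, with 1.21 for the 254 sites up to 500 bp from the TSS and 1.31 for the 419 sites beyond. For sites with none of the elements the values were 0.26 and 0.44.

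**Figure D4:**
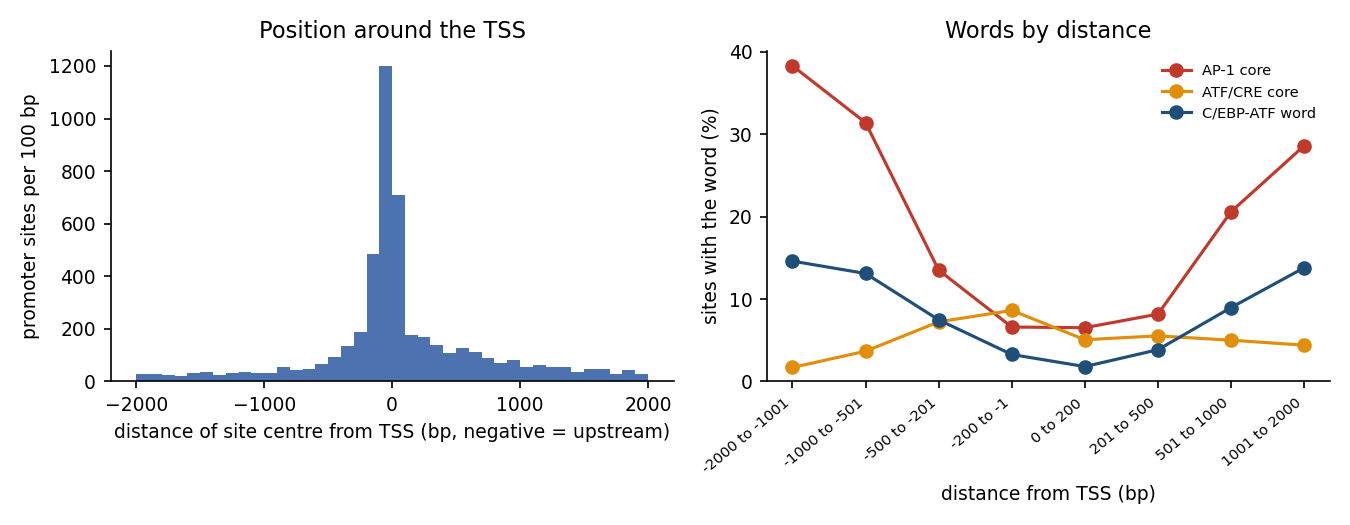
Left, number of promoter sites per 100 bp by the distance of the centre from the TSS in bp. Right, share of sites (%) in each distance bin that hold the AP-1 core, the ATF/CRE core or the C/EBP-ATF word within 200 bp; the AP-1 share falls from 38.3% far upstream to 6.60% just before the TSS, where the ATF/CRE share is highest at 8.62%.

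Genes of the integrated stress response were the list with the lowest ratios. Of its 37 genes, 19 had a promoter site (51.4%, interval 35.9 to 66.6, beside 21.8% of all protein-coding genes), and their 23 sites had a median NTC of 29.3 before and 33.6 after CPT. The median log2 ratio was -0.25, and 14 of the 23 sites were lower. Of the 14 sites in the composite class 13 were lower, and of the other 9 only 1 was. All 12 lists were chosen with earlier results of these data known.

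ASNS, which makes asparagine and is a classical ATF4 target, had an NTC of 85.7 before CPT and a log2 ratio of -0.96. CARS1, the cysteinyl-tRNA synthetase, had 96.5 and 50.5, and DDIT4, an inhibitor of mTORC1, had 93.5 and 56.3. The pseudokinase gene TRIB3 had 54.1 and 38.8. All 4 sites carry the composite.

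SESN2, a stress-induced regulator of mTORC1, was the composite site that went the other way, with 17.0 before and 43.3 after CPT. PPP1R15A, the inducible partner of PPP1R15B, had an ATF/CRE site at 12.4 and 20.1 and an AP-1 site at 7.0 and 34.3. STC2, a secreted glycoprotein, had a composite site at 60.2 and 33.6 (log2 ratio -0.84). Closer to its TSS it had an AP-1 site at 59.5 and 77.0 (0.37). At SARS1 the log2 ratios were -0.37 at a composite site, -0.25 at a site with none of the elements and 0.33 at a TGACG site. Intervals are not given for these sites, so a difference in direction within 1 promoter is not established.

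Of the 49 bZIP genes, 22 had a promoter site (44.9%, beside 21.8% of all protein-coding genes). Their 26 sites had a median log2 ratio of 0.73, beside 0.47 over all 4877 sites. Of these sites 10 were at least 2-fold higher (beside 27.1% of all 4877 sites), 1 was at least 2-fold lower and 6 had any lower value, among them the upstream sites of ATF6 at -931 bp (log2 ratio -0.67) and of MAFG (-0.59), each of which had a second site with a positive log2 ratio (0.80 and 1.83). JUN, an AP-1 subunit, had an NTC of 30.9 before and 99.0 after CPT, 51 bp upstream of the TSS (ratio 3.20, interval 2.25 to 4.66). Its relative JUNB had 7.0 and 20.7, FOSL2 16.2 and 59.5, BACH2 16.2 and 58.2, and MAFF 30.9 and 81.5. These 5, named for their increase, were at least 2-fold higher, and their sites hold TGACG, AP-1 or ATF/CRE elements.

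CEBPB, a dimer partner of ATF factors, had 120.5 before and 91.9 after CPT at a composite site in its UTR (interval of the ratio 0.60 to 0.96). JDP2, a close relative of ATF3, had 42.5 and 20.7 (interval 0.30 to 0.77). XBP1, a factor of the unfolded protein response, had 41.7 and 48.5 (interval 0.81 to 1.68), which could not be told apart. These 3 sites all hold the composite.

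ATF3 itself was a case where the choice of TSS mattered. The start of its gene record has a site 1962 bp downstream, with an AP-1 element, at an NTC of 17.8 before and 51.8 after CPT. The TSS of another ATF3 transcript has a site 21 bp upstream, at chr1:212782019-212782145, with an NTC of 313.6 and 278.8 (interval of the ratio 0.77 to 1.02), which is not among the 4877. By transcript starts, 1553 further sites would be promoter sites (median log2 ratio 0.81). The 3 highest were at PYCR1, a proline synthesis enzyme, with 354.5 and 237.4, at ATF3, and at GARS1, the glycyl-tRNA synthetase, with 244.8 and 133.9. All 3 hold the composite.

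Immediate early genes, which respond within minutes to growth factors and stress, had a site at 20 of 40 genes (interval 35.2% to 64.8%). The share of all protein-coding genes was 21.8%. The 26 sites had a median log2 ratio of 0.53, close to the 0.47 of all 4877 sites, with 2 lower values and no site with the composite. DUSP1, a MAP kinase phosphatase, had 3 sites, of which that with the ATF/CRE element, 164 bp upstream, had an NTC of 45.6 before and 91.2 after CPT (interval of the ratio 1.47 to 2.76). The other two had 10.8 and 11.0, and 10.0 and 13.6. KLF6, a zinc finger factor, had 55.6 and 95.7.

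Of the NF-κB and inflammatory genes 14 of 29 had a site (48.3%, beside 21.8% of all protein-coding genes). The median log2 ratio over 15 sites was 0.83, beside 0.47 over all 4877 sites. BIRC2, an inhibitor of apoptosis, had 31.7 before and 80.9 after CPT at a site centred 12 bp upstream that held an ATF/CRE element (interval of the ratio 1.78 to 3.73). RELA, the NF-κB subunit p65, had 25.5 and 49.8, and TNFRSF1A, a TNF receptor, 22.4 and 15.5 (interval 0.39 to 1.23).

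Of 33 p53 target genes, 19 had a site (57.6%, interval 40.8 to 72.8, beside 21.8% of all protein-coding genes). Their 22 sites had a median log2 ratio of 0.51, close to the 0.47 of all 4877 sites. GADD45A, a growth arrest gene, had an NTC of 85.0 before and 63.4 after CPT at an AP-1 element in an intron (interval of the ratio 0.56 to 0.99). PLK3, a stress-activated kinase, had 78.0 and 76.3, and AEN, an apoptotic nuclease, 35.5 and 80.9 (interval 1.61 to 3.27). MDM2, the ubiquitin ligase of p53, had 8.5 at both of its sites before CPT, and 12.9 and 30.4 after.

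A site was found at 27.8% of 54 DNA damage signalling and repair genes (interval 17.6 to 40.9), 29.7% of 37 chaperone genes (17.5 to 45.8) and 26.2% of 42 cell cycle genes (15.3 to 41.1), and these 3 intervals contain the 21.8% of all protein-coding genes. The share was 40.6% of 32 proteasome subunit genes (25.5 to 57.7) and 35.4% of 79 cytoplasmic ribosomal protein genes (25.8 to 46.4). The median log2 ratios of the 5 lists, in this order, were 0.37, 0.36, 0.33, 0.81 and 0.51, beside 0.47 over all 4877 sites. Among chaperones CCT7, a subunit of the cytosolic chaperonin, had an NTC of 20.9 before and 7.8 after CPT (interval of the ratio 0.17 to 0.76), and HSPA9 had 38.6 and 50.5.

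Genes that mark colon epithelium had a site at 4 of 26 (15.4%, interval 6.15 to 33.5, beside 21.8% of all protein-coding genes). CLDN4, a tight junction protein, had 13.1 before and 39.5 after CPT at a site 208 bp from the start of its gene record. Counted from the nearest TSS of a protein-coding transcript, that site was at -27994 bp. Genes restricted to other tissues had a site at 4 of 45 (8.89%, interval 3.51 to 20.7, beside the same 21.8%). One of these was SYN1, a synaptic vesicle gene, with 7.7 and 26.5. These lists are of genes near a site and say nothing of expression.

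**Figure D5:**
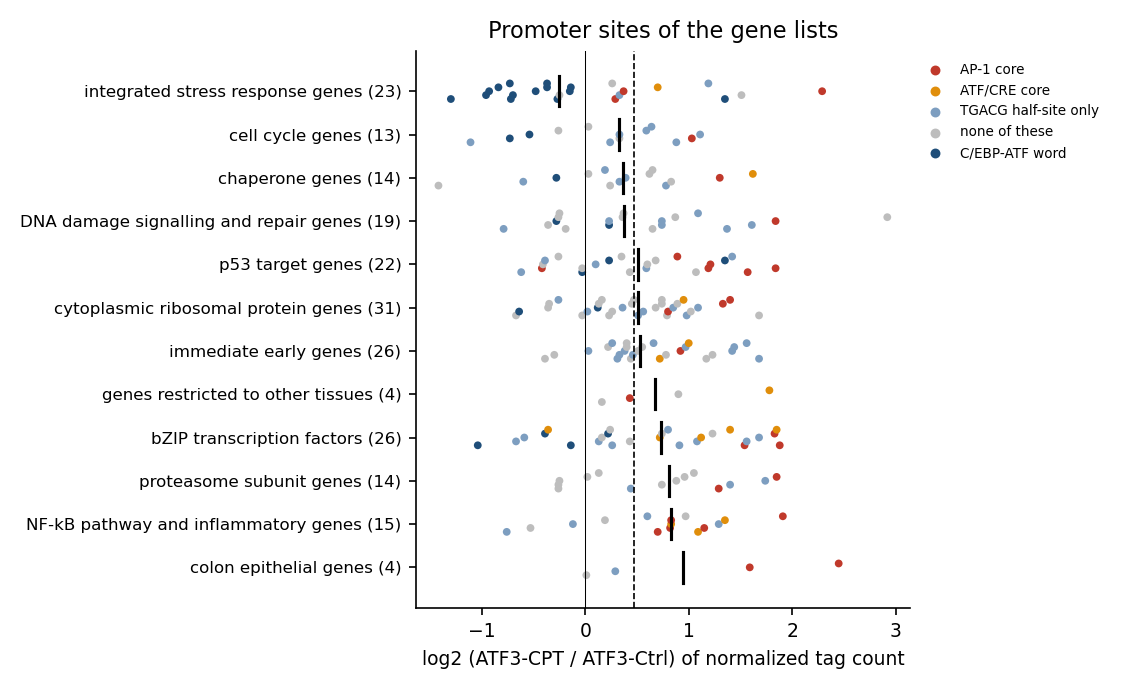
Log2 ratio of the normalized tag count in ATF3-CPT over ATF3-Ctrl for each promoter site of the 12 gene lists (points, coloured by sequence class, number of sites in brackets), with the median of each list as a black bar and that of all 4877 sites (0.47) as a dashed line. The integrated stress response list has the lowest median (-0.25), and of its 14 points below 0, 13 are of the C/EBP-ATF class.

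Most genes had a single site. There were 3916 genes with 1, 441 with 2, 25 with 3 and 1 with 4. That gene was S100A2, a calcium-binding protein, whose sites had NTC of 24.7, 36.3, 42.5 and 13.9 before CPT and 38.8, 114.5, 111.9 and 30.4 after, in order from the most upstream. All 4 had a ratio above 1, and the interval of each lay above 1. DUSP1, SARS1, PDK1, MT2A and S100A11 were among the genes with 3.

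Few of the sites overlapped a p53 peak. A p53-CPT peak, which the rule did not use, shared at least 1 bp with 78 of the 4877 sites (1.60%, interval 1.28 to 1.99), against 1.26% (1.12 to 1.43) of the sites outside promoters. A p53-KO peak did so with 16 (0.328%, 0.202 to 0.532). The p53-CPT and p53-KO libraries held 3169743 and 1984941 tags and differ in genotype and treatment, which cannot be told apart.

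The 67 sites with a p53-CPT and no p53-KO peak had a median log2 ratio of 0.65, and the 4799 sites without a p53-CPT peak 0.47. The highest of the 78 before CPT was at EIF1, a translation initiation factor, with an NTC of 150.6 and 143.6, followed by KNL1, a kinetochore protein, with 117.4 and 84.1, and by GADD45A. The sites at KNL1 and CASC3 also overlapped a p53-KO peak. P4HB, protein disulfide isomerase, had 73.4 and 99.6, and CASC3, of the exon junction complex, 67.2 and 86.7.

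At the limits of the rule, the sites just inside 2 kb were at RPL26 (-1996 bp, NTC 17.8 and 36.2) and SYS1 (-1992 bp, 14.7 and 40.8), and those just outside at ARMH3 (-2001 bp, 16.2 and 31.1) and NPIPA5 (-2004 bp, 8.5 and 18.1). Sites at ATXN10 (6.2 and 6.5) and NCEH1 (7.0 and 27.8) overlapped their ATF3-CPT peak by 1 bp, while peaks at ZFYVE9 (8.5 before CPT) and ITGB3BP (7.0) had a gap of 1 bp to the nearest. The median overlap was 107 bp, and 318 sites (6.52%) overlapped by less than 50 bp.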

How the data were processed

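Peak lists of 5 ChIP-seq libraries were used, 1 per condition. The authors aligned reads to hg19 with BWA 0.6.1 and, for every library on its own, called peaks with HOMER 4.1 (versions from the submitters' processing notes), with a false discovery rate of 0.001, 4-fold over the local 10 kb and a local Poisson p of 1.00e-04, without input. The normalized tag count, a signal as deposited, was computed by the authors as tags per 10000000. The deposited findPeaks score counts at most 1 tag per position. The authors also deposited a focus ratio, a fraction of tags near the centre, a fold over the local region and a clonal fold. A Poisson p-value of each peak against its local region was also deposited by the authors. None of these enters a result here. Whole tags were recovered from the normalized tag counts (100.0% of values within rounding).

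Overlap was at least 1 bp. The TSS was the 5′ end of each protein-coding gene record of GENCODE release 44 on GRCh37 (the same build as hg19), and a site was given to the nearest. A ratio used the overlapping ATF3-CPT peak with the highest score. Words were exact matches on either strand of the reference. Files were read with Python 3.11.15, pandas 2.3.3, numpy 2.4.6 and scipy 1.17.1, and the scripts were tested on simulated data. Depth was 12947516 (ATF3-Ctrl), 15457013 (ATF3-CPT) and 12820520 tags (ATF3-KO); 3 tags were an NTC of 2.317, 1.941 and 2.340, and peaks under the callers' thresholds are not listed.

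Sites, gene lists and classes were chosen with earlier results of these data known. Named were the 10 sites highest before CPT, the 10 largest increases and decreases among sites with at least 30 tags in either library, the 3 highest genes of each list, the genes with most sites, sites at the limits of the rule and the 5 highest with a p53-CPT peak. A few sites that met this rule are not reported here. Further members of the gene lists, ISG15, the sites counted from transcript starts and the words TGACGCAA and TGACGTAA were chosen after their values were seen. Alternatives covered promoter width, TSS set, centre distance, score, ATF3-KO peaks, scaling, value compared, fold and search window.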

Additional observations from a re-analysis of the deposited data

How the results depend on the processing

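No paired analysis was possible because each condition was 1 library and the labels carry no replicate numbers. The median log2 ratio of 0.47 stayed above 0 under every alternative but the division by the median over all shared peaks, which by construction gave -0.37, with 189 sites at least 2-fold higher and 869 lower. It was 0.44 with a 1 kb promoter, 0.56 with the TSS of every transcript, 0.53 with centres at most 50 bp apart, 0.55 with a score of at least 15 in both libraries, 0.43 with ATF3-KO peaks kept and 0.42 by the score. At that score limit 1928 sites at 1824 genes remained, with 570 higher and 25 lower. A 1.5-fold limit gave 2229 higher and 270 lower. The share with an ATF/CRE or AP-1 element was 17.1% (1 kb), 23.9% (transcripts), 21.8% (centres), 27.4% (score limit), 18.6% (ATF3-KO peaks kept) and 18.7% (the peak itself searched). The share within 500 bp was 74.4% (transcripts), 68.3% (score limit) and 73.1% (ATF3-KO peaks kept).

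The class medians were run under 4 alternatives added after the values were seen. The composite class was below 0 in all 4 (-1.20 to -0.28), AP-1 above 0 (0.43 to 1.27) and ATF/CRE above 0 (0.21 to 1.03). The -1.20 came from the division by the median over all shared peaks, which lowers every log2 ratio by 0.85. For the composite class the sign under that alternative was thus fixed by construction. Without replicates, no spread between cultures is known, and a site under the caller's threshold in either library is not among those described. The ATF3-KO library was not treated with CPT.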
